A study of Caenorhabditis elegans with 15 samples.

Results

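The genes described here encode the C. elegans DREAM complex: lin-35, efl-1, dpl-1, lin-9, lin-37, lin-52, lin-53 and lin-54. They were chosen by name, as all probe sets annotated to 1 of these 8 symbols and to no other gene; the rule uses no measured value, although the complex was picked with earlier results of these data known. That rule gave 8 of the 17118 genes with such a probe set and 15 of 20766 probe sets, and 6 of the 8 genes had more than 1 probe set. All 8 genes and all 15 probe sets were bright enough to be tested. In the RefSeq table lin-35 and lin-53 lie on chromosome I, dpl-1 on II, lin-9, lin-37 and lin-52 on III, lin-54 on IV and efl-1 on V.

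Transcripts were measured on Affymetrix C. elegans arrays in RNA from whole larvae that had hatched without food and then fed on OP50 bacteria for 6 to 7 hours, a stage labelled L1-L2. There were 2 samples of strain MT3033, which carries lin-35(n745) together with unc-13(e1091), both on chromosome I, 3 of BB11 with rde-4(ne299) on chromosome III, 3 of VC446 with alg-1(gk214) on chromosome X, 2 of RB774 with zfp-1(ok554) on chromosome III, and 3 of the wild-type Bristol strain N2. The lin-35 strain, called the lin-35 mutant below, also carries a mutation in unc-13, a synaptic gene that makes animals uncoordinated when lost, and no other strain carries it, so what each of the 2 mutations contributes cannot be told apart. The series describes replicates as separately grown populations, and replicate 2 of the lin-35 and of the zfp-1 strain, each hybridised to 2 arrays, was counted as 1 sample. In RNA from whole animals, fewer cells of a type and less RNA per cell cannot be told apart.

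The DREAM complex represses transcription of cell-cycle genes in quiescent and differentiating cells, and in C. elegans it also keeps germline genes off in somatic tissues. LIN-35 is the worm's only Rb-family pocket protein. It joins the heterodimer of EFL-1, an E2F transcription factor, and DPL-1, its DP partner, to the MuvB core of LIN-9, LIN-37, LIN-52, LIN-53 and LIN-54, in which LIN-54 binds DNA and LIN-53 is an RbAp46/48-type histone-binding protein. Loss of most of these genes gives a synthetic multivulva (synMuv) class B phenotype, seen when a class A gene is lost as well. RDE-4 is a double-stranded RNA binding protein of the RNA interference pathway, ALG-1 a microRNA Argonaute, and ZFP-1 a chromatin protein of the AF10 family.

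On the arrays 8140 to 8400 genes reached 5 on the log2 scale, and brightness differed with strain. The lin-35 mutant arrays had the highest counts, from 8339 to 8400, and the highest medians. After subtraction of array medians, the median lin-35 minus rde-4 difference of all genes became more negative. Values under other scalings are therefore also given for the lin-35 mutant. The wild-type samples stood apart from each other: on the second principal component, which held 21.4% of the variance, wild-type replicates 1 and 2 scored 46.1 and 49.3 against 13.6 for replicate 3, while the mutants lay between -30.9 and 21.9. Where a member's call depended on the wild-type samples, its value without single ones of them or against replicate 3 alone is therefore also given. The 3' minus 5' signal of the actin probe sets, a measure of RNA integrity in which a larger value means more degraded or truncated RNA, ranged over 0.81 to 1.59 in lin-35, 1.94 to 2.96 in rde-4, 0.89 to 1.62 in alg-1 and 0.96 to 1.5 in zfp-1 samples, and over 1.25 to 2.22 in wild-type samples, and its part in the results was not tested. As a check of the labels, the rde-4 transcript fell by 2.97 in its own mutant (adjusted p = 6.1e-06 by limma). The alg-1 transcript had a change of -1.44 in its mutant (adjusted p = 0.219 by limma), zfp-1 one of 0.01 in its mutant (adjusted p = 0.99 by limma), and unc-13 one of -0.14 in the double mutant (adjusted p = 0.739 by limma). Where the probes lie relative to these mutations was not examined, so the last 3 values check nothing about the strains.

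In the lin-35 mutant the pocket protein's own transcript fell while its E2F and DP partners and 1 core subunit rose. Relative to wild type, lin-35 itself was lower, efl-1, dpl-1 and lin-9 were higher, and lin-37, lin-52, lin-53 and lin-54 did not pass the test. Thus 3 of 8 members were called higher and 1 lower at a limma adjusted p under 0.05, where 5.19% of all 8653 tested genes were called higher and 1.47% lower. The median change of the members was 0.54 on the log2 scale, beside 0.01 for all tested genes. All levels below are log2 values of 1 probe set per gene and are compared between samples only.

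The level of lin-35 was 7.47 and 8.24 in the lin-35 mutant. It was 9.92, 10.15 and 9.82 in rde-4, 9.37, 9.64 and 9.78 in alg-1, 9.64 and 9.997 in zfp-1, and 9.33, 9.44 and 9.62 in wild-type samples. Both lin-35 mutant samples lay below all 11 others, by more than 1 log2 unit. The change against wild type was -1.61 (SE 0.25, 95% interval -2.15 to -1.07, limma adjusted p = 0.00149), so the mutant kept 0.328 of the wild-type signal. The second lin-35 probe set gave 6.28 and 6.85 in the mutant against 7.88, 8.40 and 7.94 in wild type and a change of -1.51 (limma adjusted p = 0.00307 over the 11049 tested probe sets, of which 1.19% were called lower and 4.86% higher). The transcript was thus reduced and still measured well above a value of 5 in both mutant samples. The call held against wild-type replicate 3 alone, at -1.77 (limma adjusted p = 0.0238).

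For efl-1, the E2F subunit, the lin-35 mutant had 8.49 and 8.89. The gene measured 8.07, 8.0 and 8.17 in rde-4, 7.68, 7.27 and 7.78 in alg-1, 7.78 and 7.48 in zfp-1, and 6.37, 7.00 and 7.45 in wild-type samples. Both lin-35 mutant samples lay above the other 11, and the wild-type samples differed among themselves by more than 1 log2 unit, with replicate 3 the highest. The change against wild type was 1.76 (SE 0.29, 95% interval 1.12 to 2.39, limma adjusted p = 0.0027), which is 3.38-fold. A second, dimmer efl-1 probe set had 8.20 and 8.44 in the lin-35 mutant against 4.58, 5.52 and 6.65 in wild type, a rise of 2.74 (limma adjusted p = 0.00261). Against wild-type replicate 3 alone the change was 1.25 and the call was lost (limma adjusted p = 0.0618).

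Next comes dpl-1, the DP partner, for which the rise was the largest of the 8 genes by the brightest probe set of each (the dimmer efl-1 probe set rose by more). Its level was 10.09 and 10.03 in the lin-35 mutant. The other mutants gave 8.47, 7.68 and 7.66 for rde-4, 7.67, 8.60 and 8.18 for alg-1, and 8.22 and 8.68 for zfp-1, and wild type gave 7.83, 6.86 and 8.39. The 2 lin-35 mutant samples were nearly equal and lay more than 1 log2 unit above the highest other sample, which was zfp-1 replicate 2. Against wild type the change was 2.37 (SE 0.42, 95% interval 1.44 to 3.29, limma adjusted p = 0.00441), or 5.16-fold. Only 1 probe set measures this gene, and it is of a type whose probes can match more than 1 transcript. Against wild-type replicate 3 alone the value was 1.67 and no longer passed (limma adjusted p = 0.0982).

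**Figure D1:**
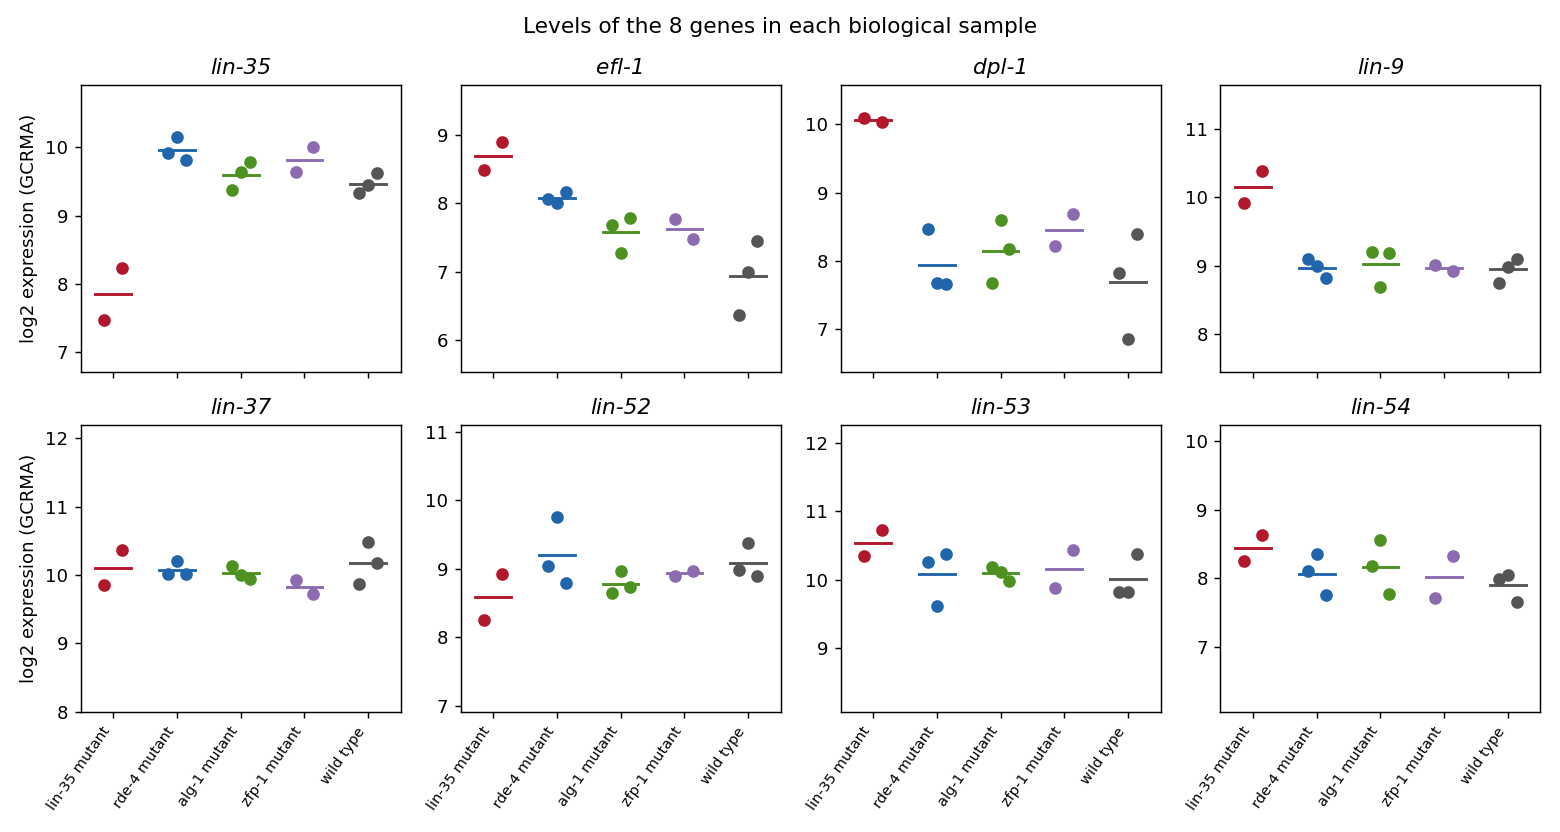
Log2 expression (y axis, GCRMA values) of the 8 genes in each biological sample, with a point per sample, a bar at each group mean and groups on the x axis; each panel has its own origin and the same span. In the lin-35 mutant, lin-35 sat below and efl-1, dpl-1 and lin-9 sat above all 11 other samples. For lin-37, lin-52, lin-53 and lin-54 the lin-35 mutant samples were neither all above nor all below the 11 others.

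In the MuvB core, lin-9 was the only member to pass. It had 9.91 and 10.39 in the lin-35 mutant. Its level was 9.10, 9.0 and 8.82 in rde-4, 9.20, 8.69 and 9.19 in alg-1, 9.01 and 8.93 in zfp-1, and 8.75, 8.98 and 9.10 in wild-type samples. The 11 other samples thus lay between 8.69 and 9.20, and both lin-35 mutant samples lay above them. The change was 1.21 (SE 0.22, 95% interval 0.72 to 1.69, limma adjusted p = 0.00563), or 2.31-fold, and the other 2 lin-9 probe sets rose by 1.39 and 1.49. All 3 lin-9 probe sets are of a type whose probes can also match other transcripts. A related type, shared among transcripts, holds the dpl-1 probe set, the lin-35 probe set used and the dimmer efl-1 probe set. It also holds those used for lin-37, lin-52, lin-53 and lin-54. The call was lost without lin-35 replicate 2, at 0.97 (limma adjusted p = 0.0737), and against wild-type replicate 3 alone, at 1.05 (limma adjusted p = 0.146).

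Across all 11 other samples, lin-35 lay below and efl-1, dpl-1 and lin-9 lay above in both lin-35 mutant samples, beside 3.15% of tested genes below and 7.25% above. The remaining core subunits had intervals that include 0. The DNA-binding subunit lin-54 had 8.25 and 8.64 in the lin-35 mutant against 7.99, 8.05 and 7.66 in wild type. These groups did not overlap, as was so in this direction for 18.8% of tested genes, and the change was 0.55 (95% interval -0.09 to 1.18, limma adjusted p = 0.323). The histone-binding subunit lin-53 had 10.35 and 10.72 against 9.82, 9.81 and 10.38, a change of 0.53 (95% interval -0.09 to 1.15, limma adjusted p = 0.325). Its second probe set gave -0.18 (95% interval -1.14 to 0.78), so the 2 probe sets disagree in sign and neither passed. On that second probe set the 2 averaged arrays of lin-35 replicate 2 read 9.14 and 10.21, the widest gap of any member probe set. The paralogue rba-1, which lies next to lin-53 on chromosome I and encodes a closely related protein, had a change of 0.48 (limma adjusted p = 0.264), and signal shared between the pair cannot be separated here.

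For lin-52, a small core subunit, the levels were 8.26 and 8.92 in the lin-35 mutant against 8.98, 9.38 and 8.90 in wild type, a change of -0.50 (95% interval -1.15 to 0.15, limma adjusted p = 0.385). For lin-37, another core subunit, they were 9.85 and 10.37 against 9.87, 10.48 and 10.18, a change of -0.07 (95% interval -0.56 to 0.42, limma adjusted p = 0.911). The second probe sets of lin-52 and lin-37 gave -0.46 and 0.30. Missing the threshold does not show that these 4 subunits were equal between strains: the intervals allow a rise of up to 1.18 for lin-54 and a fall of up to 1.15 for lin-52. Over all samples, lin-37 was the steadiest of the 8 genes, with a range of 0.77, against 3.22 for dpl-1.

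**Figure D2:**
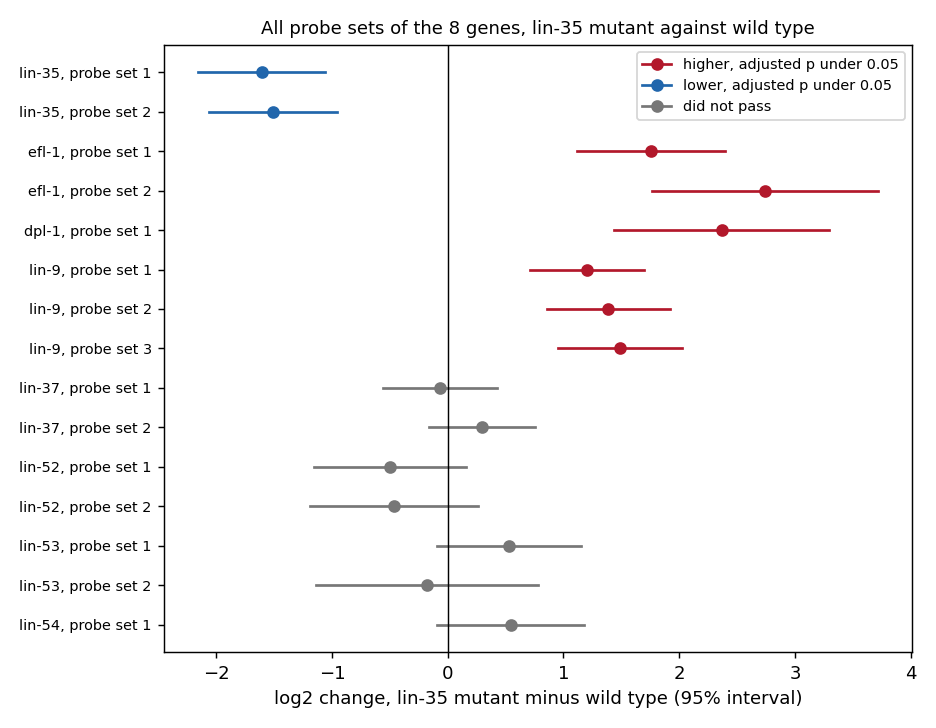
Log2 change of each of the 15 probe sets, lin-35 mutant minus wild type (x axis), with its 95% interval from limma; probe set 1 of each gene is the brightest and the one used for the gene. Both probe sets of lin-35 fell and all probe sets of efl-1, dpl-1 and lin-9 rose, while the 2 probe sets of lin-53 gave 0.53 and -0.18.

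In the rde-4 mutant, 1 of the 8 members passed. The gene was efl-1, which was 1.14 higher than in wild type (SE 0.26, 95% interval 0.57 to 1.71, limma adjusted p = 0.0217), and all 3 rde-4 samples lay above all 3 wild-type samples. Its second probe set was 1.49 higher (limma adjusted p = 0.0395, where 6.09% of tested probe sets were called higher). Among all tested genes 6.38% were called higher in this comparison and 4.73% lower, so 1 of 8 members is near the background. The efl-1 call rested on the wild-type samples: the change was 0.86 without wild-type replicate 1 (limma adjusted p = 0.0756), 1.17 without replicate 2 (limma adjusted p = 0.0626), 1.4 without replicate 3 (limma adjusted p = 0.00697) and 0.64 against replicate 3 alone (limma adjusted p = 0.524). It was also lost without rde-4 replicate 1, at 1.15 (limma adjusted p = 0.0603), or replicate 3, at 1.10 (limma adjusted p = 0.0578). The actin 3' minus 5' signal was higher in the rde-4 than in the other mutant samples, as given above.

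Among the other members in the rde-4 mutant, lin-35 had a change of 0.50 (95% interval 0.01 to 0.98, limma adjusted p = 0.161) with groups that did not overlap, as for 19% of tested genes in this direction. The second lin-35 probe set gave 0.13 (95% interval -0.37 to 0.62, limma adjusted p = 0.746), with groups that overlapped. The changes of the other 6 lay between -0.10 for lin-37 and 0.25 for dpl-1.

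In the alg-1 and zfp-1 mutants no member passed limma's adjusted threshold, beside 3.13% and 4.2% of all tested genes called in either direction. At an unadjusted p under 0.05 there was 1 member of 8 in each, efl-1, beside 18.3% and 22% of all tested genes. Its change was 0.64 in the alg-1 mutant (95% interval 0.07 to 1.21, limma adjusted p = 0.224) and 0.69 in the zfp-1 mutant (95% interval 0.05 to 1.33, limma adjusted p = 0.193). Without wild-type replicate 1 these values were 0.36 and 0.41 (limma adjusted p = 0.527 and 0.45), and against replicate 3 alone they were 0.13 and 0.18 (limma adjusted p = 0.998 and 1). The dimmer efl-1 probe set, which ranged over 4.58 to 6.65 in wild type, gave larger values that did not pass. They were 1.07 in the alg-1 mutant (95% interval 0.20 to 1.95, limma adjusted p = 0.183) and 1.38 in the zfp-1 mutant (95% interval 0.41 to 2.36, limma adjusted p = 0.102). All 4 comparisons share the same 3 wild-type samples, so that the positive efl-1 values of the 4 mutants are not independent of each other.

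**Figure D3:**
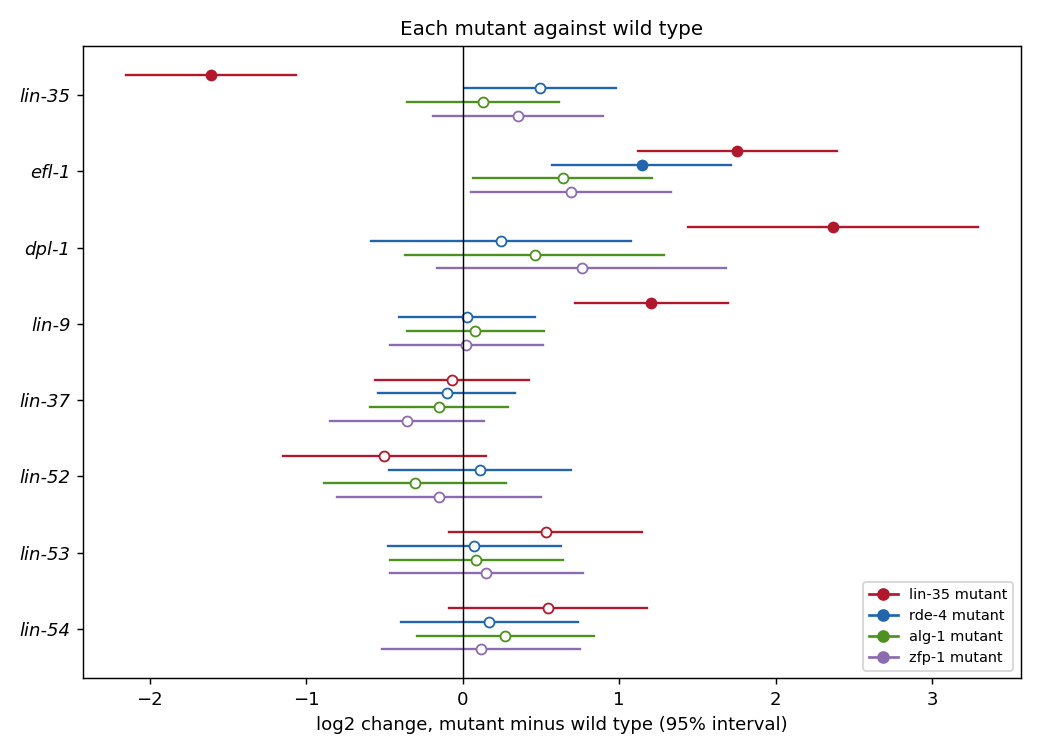
Log2 change of each gene in each mutant minus wild type (x axis) with its 95% interval from limma; filled points passed an adjusted p of 0.05. The lin-35 mutant has 4 filled points, the rde-4 mutant has 1, for efl-1 at 1.14, and the alg-1 and zfp-1 mutants have none.

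Direct comparisons between mutants do not use the wild-type samples in the contrast. Against the rde-4 mutant, the lin-35 mutant had dpl-1 at 2.12 higher (limma adjusted p = 0.00685), lin-9 at 1.18 higher (limma adjusted p = 0.00503) and lin-35 lower, with a difference of -2.11 (limma adjusted p = 0.000129). For efl-1 the difference was 0.61 (95% interval -0.03 to 1.25, limma adjusted p = 0.215), and the 2 groups did not overlap, as for 20.4% of tested genes in this direction. The dimmer efl-1 probe set differed by more, 1.25 (95% interval 0.27 to 2.23), and did not pass either (limma adjusted p = 0.108). In this comparison 7.96% of tested genes were called higher and 3.41% lower. The lin-52 difference was -0.61 (limma adjusted p = 0.225), and it passed after subtraction of array medians, at -0.91 (limma adjusted p = 0.0485). The rise of dpl-1 lost its call without lin-35 replicate 1, at 2.09 (limma adjusted p = 0.0653).

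Against the alg-1 mutant 4 members passed: dpl-1 by 1.91 (limma adjusted p = 0.0175), efl-1 by 1.12 (limma adjusted p = 0.0411), lin-9 by 1.12 (limma adjusted p = 0.00917) and lin-35 by -1.74 (limma adjusted p = 8e-04), where 5.5% of tested genes were called higher and 1.44% lower. The efl-1 call is close to the threshold and was lost in 16 of 25 alternatives, with values of 0.92 to 1.66 over all of them. Among these were the omission of wild-type replicate 2, of any alg-1 or zfp-1 sample, of rde-4 replicate 1 or 3 and of either lin-35 sample, with limma adjusted p of 0.0533 to 0.2. The dpl-1 call was lost in 6 of 25, among them the omission of lin-35 replicate 1, at 1.88 (limma adjusted p = 0.129), lin-35 replicate 2, at 1.93 (limma adjusted p = 0.0799), alg-1 replicate 1, at 1.67 (limma adjusted p = 0.0701), or alg-1 replicate 3, at 1.92 (limma adjusted p = 0.0515). The lin-9 call was lost without lin-35 replicate 2, at 0.89 (limma adjusted p = 0.0804). The alg-1 replicates 1 and 3 were as alike as repeat arrays of 1 sample, and with their mean counted as 1 sample the efl-1 difference was 1.19 (limma adjusted p = 0.0759) and the dpl-1 difference 1.79 (limma adjusted p = 0.0594).

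Against the zfp-1 mutant, lin-9 was 1.18 higher (limma adjusted p = 0.0125) and the lin-35 difference was -1.96 (limma adjusted p = 0.000627), where 5.64% of tested genes were called higher and 0.636% lower. Here dpl-1 differed by 1.61 (95% interval 0.59 to 2.62, limma adjusted p = 0.0684) and efl-1 by 1.07 (95% interval 0.37 to 1.77, limma adjusted p = 0.0796), both without overlap of the groups, as for 28% of tested genes in this direction. The lin-9 call was lost without zfp-1 replicate 1, at 1.22 (limma adjusted p = 0.078), zfp-1 replicate 2, at 1.14 (limma adjusted p = 0.101), or lin-35 replicate 2, at 0.94 (limma adjusted p = 0.086). The lin-9 call was also lost after subtraction of array medians, at 0.91 (limma adjusted p = 0.0745). With its probe set of largest variance lin-9 did not pass, at 0.92 (limma adjusted p = 0.0775). With only those 2 groups fitted lin-9 did not pass (limma adjusted p = 0.0538), while dpl-1 did (limma adjusted p = 0.0217). The dimmer efl-1 probe set gave 1.36 (limma adjusted p = 0.174). Conversely, dpl-1 passed without wild-type replicate 2 (limma adjusted p = 0.0287) or replicate 3 (limma adjusted p = 0.0416), and efl-1 without wild-type replicate 1 (limma adjusted p = 0.0305) or replicate 3 (limma adjusted p = 0.0439).

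None of the 8 members passed between the rde-4, alg-1 and zfp-1 mutants, in which limma called 1.02% of tested genes for rde-4 against alg-1, 1.36% for rde-4 against zfp-1 and 0.705% for alg-1 against zfp-1. At an unadjusted p under 0.05 there were 0 members in each of the 3, beside 15.5%, 11.4% and 10.2% of tested genes in the same order. Of the 48 direct tests, 9 passed, and each of the 9 involved the lin-35 mutant. Among the 9 are the calls of lin-35, the gene mutated in that strain, against each of the other 3 mutants. The order of the efl-1 group means was lin-35 mutant, rde-4, zfp-1, alg-1 and wild type, at 8.69, 8.08, 7.63, 7.58 and 6.94, and no neighbours in that order passed the test against each other. For dpl-1 the order was lin-35 mutant, zfp-1, alg-1, rde-4 and wild type, at 10.06, 8.45, 8.15, 7.94 and 7.69, and again no neighbours passed. For lin-9 the lin-35 mutant stood at 10.15, and the other 4 means lay between 8.94 and 9.03.

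**Figure D4:**
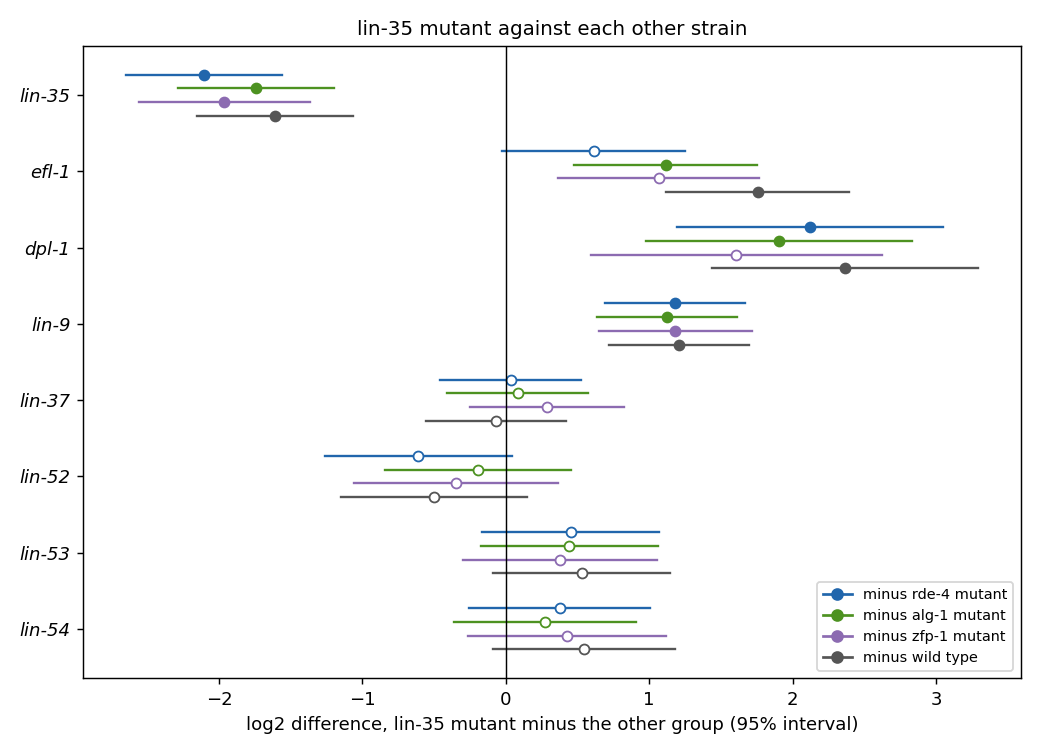
Log2 difference of each gene, lin-35 mutant minus each other group (x axis), with its 95% interval from limma; filled points passed an adjusted p of 0.05. The lin-35 gene was lower and lin-9 was higher against all 4 groups, and the intervals of lin-37, lin-52, lin-53 and lin-54 include 0 in all 4.

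The rises of efl-1, dpl-1 and lin-9 were set beside those of the pathway's other genes. Lists of such genes were taken with earlier results of these data known, and they are described by counts and medians, with no test of a list. Single genes are examples, named for the smallest adjusted p of their list, so their p-values are no independent support. Against wild type, 5.19% of all tested genes were called higher in the lin-35 mutant and 1.47% lower. Of 17 tested mitotic genes, 12 were called higher and 0 lower, with a median change of 1.33. Examples are mdf-2, a spindle checkpoint gene, at 2.73 (limma adjusted p = 0.000119), air-2, the Aurora B kinase, at 2.33 (limma adjusted p = 0.00182), and icp-1, its INCENP partner, at 1.41 (limma adjusted p = 0.00336). Of 17 tested S phase genes 5 were called higher and 0 lower, with a median of 0.72, among them orc-1, a subunit of the origin recognition complex, at 2.14 (limma adjusted p = 0.000834), psf-2, of the GINS complex, at 1.92 (limma adjusted p = 0.00311), and mcm-7, of the replicative helicase, at 1.56 (limma adjusted p = 0.00488).

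These counts depended on single samples. The mitotic count was 8 without wild-type replicate 1, 7 without lin-35 replicate 1, 4 without lin-35 replicate 2 and 2 against wild-type replicate 3 alone, while the list's median stayed between 0.93 and 1.52 in these settings. The S phase count was 1 both without lin-35 replicate 2 and against wild-type replicate 3 alone, with medians of 0.51 and 0.39. In the other mutants 1 mitotic gene was called higher, mdf-2, at 1.61 in rde-4, 1.62 in alg-1 and 1.70 in zfp-1, against the same wild-type samples. That 1 of 17 stands beside 6.38% of all tested genes called higher in rde-4. In alg-1 and zfp-1, 3.13% and 4.2% of all tested genes were called in either direction. Of the S phase genes, only mcm-4 was called in these mutants, at 0.97 in zfp-1 (limma adjusted p = 0.046).

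Genes that set the passage from G1 to S phase moved both ways in the lin-35 mutant: 1 of 10 was higher and 2 were lower, with a median of -0.22. Among all tested genes 5.19% were called higher and 1.47% lower. The CDK inhibitor cki-2 was 1.88 higher (limma adjusted p = 0.00222). The cyclin D gene cyd-1 fell by 1.23 (limma adjusted p = 0.0458), with 7.83 and 7.33 in the mutant against 8.60, 8.74 and 9.10 in wild type. The phosphatase gene cdc-25.2 fell by 2.11 (limma adjusted p = 0.0255), with 5.13 and 5.78 against 6.23, 8.48 and 7.98. These calls depended on the wild-type samples: the list's count of lower genes was 0 without wild-type replicate 2 or replicate 3, and 1 without replicate 1. That count stayed at 2 after quantile normalisation or subtraction of array medians. With a single lin-35 sample the list's median was -0.36 without lin-35 replicate 1 and 0.06 without lin-35 replicate 2.

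Of the other E2F genes, efl-2 was too dim to test and efl-3, an atypical E2F that represses transcription, had 8.39 and 9.24 in the lin-35 mutant against 9.04, 10.16 and 9.92 in wild type. Its change was -0.89 (95% interval -1.69 to -0.09, limma adjusted p = 0.197). It was lower in the lin-35 mutant than in the rde-4 mutant, with a difference of -1.30 (limma adjusted p = 0.0411), and than in the alg-1 mutant, with a difference of -1.62 (limma adjusted p = 0.0189). The efl-3 and efl-1 values thus had opposite signs in the lin-35 mutant, but only that of efl-1 passed against wild type.

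In the wider synMuv network few genes passed. In the lin-35 mutant 1 of 8 other class B genes was higher, met-2, a histone H3 lysine methyltransferase gene, at 0.70 (limma adjusted p = 0.032), with a list median of 0.27. That count was 0 without wild-type replicate 2 or 3 or either lin-35 sample, against wild-type replicate 3 alone, and after quantile normalisation or subtraction of array medians, and 1 of 8 stands beside 5.19% of all genes called higher. By limma 0 of 3 class A genes, 0 of 4 class C genes and 0 of 7 NuRD and MEC complex genes passed, and 0, 1 and 0 of them had an unadjusted p under 0.05, as did 20.4% of all tested genes. Among 9 tested chromatin factors that oppose the class B genes, 2 were higher, beside 5.19% of all tested genes. They were mes-4, a histone methyltransferase gene, at 1.58 (limma adjusted p = 0.00591) and mes-2, of a polycomb-type complex, at 0.97 (limma adjusted p = 0.0415). The median of these 9 was -0.14, and their count of higher genes was 0 without lin-35 replicate 1 or against wild-type replicate 3 alone and 1 without wild-type replicate 1, wild-type replicate 2 or lin-35 replicate 2 and under either scaling.

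**Figure D5:**
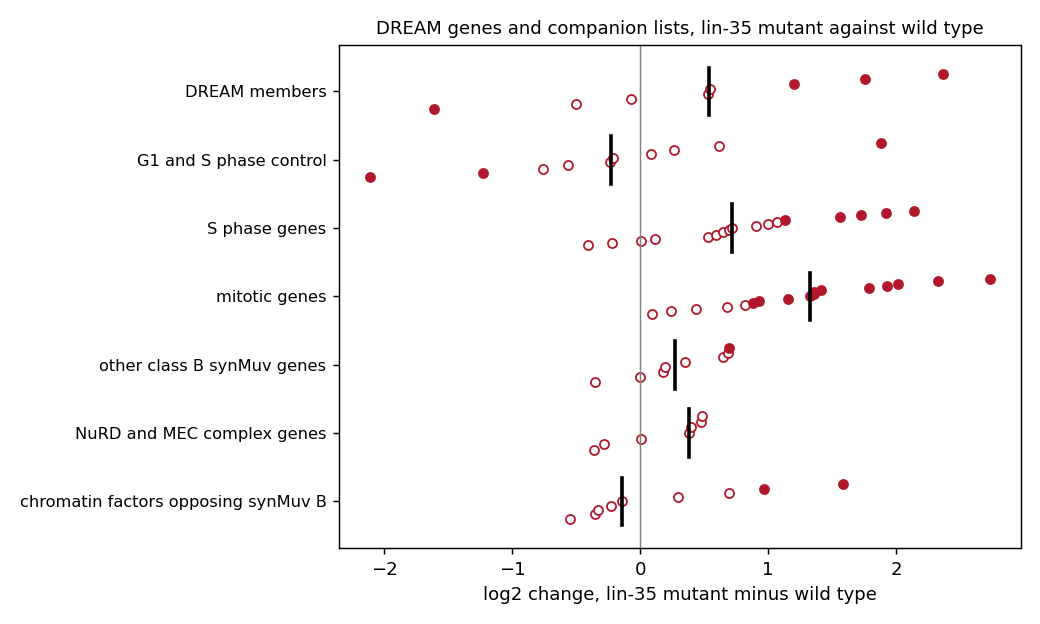
Log2 change of the DREAM genes and of 6 companion lists, lin-35 mutant minus wild type (x axis); each point is a gene, filled where limma's adjusted p was under 0.05, and each black bar is a list's median. The mitotic list has 12 filled points and a median of 1.33, the S phase list has 5 and 0.72, and the DREAM genes have 4 and 0.54.

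A list of germline genes, drawn up as genes that class B proteins keep off in the soma, was also measured, in whole larvae and not in separated soma. Of its 16 genes, 9 were below 5 in both lin-35 mutant samples and 7 were at 5 or more in both, against 0 at 5 or more in all 3 wild-type samples. The mean level of the 16 ranged over 5.59 to 5.82 in the lin-35 mutant and 2.79 to 2.88 in wild type. Of the 7, 6 were tested only because of their level in the lin-35 mutant, so their calls are no support; the exception, the helicase gene glh-1, averaged 12.5 in the lin-35 mutant and 5.43 in wild type. Among 7 germ line markers, 6 lay below 5 in every sample of every group, with glp-1, a Notch receptor gene, 1.95 higher in the lin-35 mutant (limma adjusted p = 3.16e-05). Mean levels of these 7 ran over 3.26 to 3.50 in the lin-35 mutant and 2.93 to 3.09 in wild type, and their part in the members' changes was not tested. Markers of intestine, body wall muscle, neurons, hypodermis and pharynx gave 0 calls among 24 tested genes in the lin-35 mutant by limma. Of these markers 5 had an unadjusted p under 0.05, as did 20.4% of all tested genes. Their list medians lay between -0.31 and 0.08 except for pharynx, at -1.15 over 3 genes, and 2 of 6 intestine markers were called lower under either scaling and 1 of 4 hypodermis markers without wild-type replicate 1. Of 3 tested adult markers 1 was higher, the eggshell gene cpg-2, which averaged 7.83 in the lin-35 mutant and 2.18 in wild type and was tested only through the lin-35 samples, so that its call is no support. Mean levels of the 5 adult markers ran over 4.91 to 5.03 in the lin-35 mutant and 3.97 to 4.36 in wild type. In the rde-4, alg-1 and zfp-1 mutants, in that order, 2 of 6 intestine markers were called lower. They were cpr-6 (-2.57, -2.03 and -3.79) and ges-1 (-2.42, -1.54 and -1.74). The hypodermis marker nhr-23 was called higher in rde-4 (1.42) and alg-1 (1.69). Among all tested genes 4.73% were called lower and 6.38% higher in rde-4, and 3.13% and 4.2% in either direction in alg-1 and zfp-1. The part of these lists in the members' changes was not tested.

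Genes with patterns most like those of the members were sought over the 13 samples, by the root mean square difference of log2 values after subtraction of each gene's wild-type mean. For lin-35 the nearest were C44B7.11 (0.21), rpl-11.1 (0.27) and mrps-21 (0.28). For efl-1 they were F37B12.3 (0.31), gop-1 (0.33) and citk-2 (0.35), for dpl-1 they were W04A8.1 (0.37), Y17G7B.8 (0.42) and citk-2 (0.43), and for lin-9 they were fbxa-115 (0.19), duo-3 (0.21) and clpp-1 (0.21). The member nearest to efl-1 was dpl-1, at 0.70 and rank 1017 of 8652 genes, the member nearest to dpl-1 was efl-1, at rank 196, the one nearest to lin-9 was lin-53, at 0.38 and rank 203, and the one nearest to lin-35 was lin-52, at 0.59 and rank 294. For scale, a gene that never left its wild-type mean would lie at 1.01 from efl-1 and 1.09 from dpl-1. It would lie at 0.51 from lin-9 and 0.72 from lin-35, so a small distance need not mean a shared change. On the chromosomes, 14 of the 16 genes next to a member were tested, and 0 passed in the lin-35 mutant by limma, with 1 at an unadjusted p under 0.05, beside the 20.4% of all genes. Their changes lay between -0.51 for C32F10.4, beside lin-35, and 0.71 for unc-32, beside lin-9.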

How the data were processed

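The deposited values are log2 expression values that the authors made with GCRMA (named in the submitters' processing notes without version or settings), from biotin-labelled RNA prepared from 5 microgram of total RNA per sample, per the labels. The 15 arrays cover 13 biological samples, and arrays of 1 sample were averaged. Probe sets annotated to exactly 1 gene were kept (20766 of 22625), 1 per gene, the one with the highest mean; probe sets of several genes (887), not listed (895) or control (77) were left out. A gene was tested if at least 2 of the 13 samples had a value of 5 or more, which left 8653 genes. limma 3.58.1 in R 4.3.3 fitted all 5 groups together (8 residual and 3.49 prior degrees of freedom, median residual SD 0.32), with two-sided tests adjusted by Benjamini-Hochberg over all tested genes of a contrast and called at 0.05. Probe sets were fitted likewise, and the fit was tested on simulated data. Arrays have no read depth, so their number limits the precision.

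The set of members and the lists were proposed with earlier results of these data known; within the set, probe sets were taken by gene name. Besides the members, 17 lists hold 140 names, of which lin-65, mes-6 and sld-5 were not matched. Named genes are the 8 members, up to 3 genes of each list per mutant with the smallest adjusted p under 0.05, the 3 genes nearest in pattern to each member that passed, and the mutated genes. The genes efl-2, efl-3, rba-1, glh-1, C32F10.4, unc-32, and the members named as nearest to each other, and the values of single samples for listed genes, were chosen after their values were seen. Alternatives were quantile normalisation, array medians, filters, technical arrays, probe set choice, the fit, the replicate number as a block and the omission of samples. Chromosome names and neighbours are from the RefSeq table; no genome build is stated for the arrays, so coordinates are left out. Figures were drawn with matplotlib 3.10.9.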

Additional observations from a re-analysis of the deposited data

How the results depend on the processing

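Against wild type, the 4 members called in the lin-35 mutant were 2, lin-35 and dpl-1, when only those 2 groups were fitted and 1, lin-35, against wild-type replicate 3 alone, and were 3 to 4 when 1 sample was left out. In the rde-4 mutant the 1 call was 0 with no filter on dim genes, with only those 2 groups fitted and against wild-type replicate 3 alone, and 0 to 1 when 1 sample was left out. In the alg-1 and zfp-1 mutants the count was 0 in all 26 alternatives. The 9 calls between mutants were 5 to 11 when 1 sample was left out, with 5 without lin-35 replicate 2. The replicate number as a block left the counts of members at 4, 1, 0, 0 and 9 and moved those of all genes in the zfp-1 mutant to 407 higher and 449 lower, against 110 and 253 without it. The numbers were not taken as pairs, since not every same-numbered pair of samples correlated above 0.1: 14 of 23 did (median 0.15), against 10 of 44 pairs with different numbers (median -0.09), and 5 of 13 samples correlated best with their own number. Same-numbered pairs with a lin-35 mutant sample ran over 0.15 to 0.38. In groups of 2 samples each correlation recurs with its sign reversed, so these counts are not independent and cannot decide whether the numbers mark pairs. Of 2000 values of a member under an alternative, 45 lost a call, 9 gained one, 40 uncalled values moved by more than the residual SD and 0 called values changed sign. The cause was not tested.

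The median change of the members in the lin-35 mutant was 0.54, 0.39 after quantile normalisation and 0.38 after subtraction of array medians, beside 0.01, -0.12 and -0.15 for all genes, and the same number of members, 4, was called under each. The share of calls that were higher was 78% in the lin-35 mutant, 63.1% after quantile normalisation and 61.1% after median subtraction; it was 57.4%, 50.9% and 74.9% in the rde-4 mutant and 30.3%, 26.7% and 42.5% in the zfp-1 mutant. Calls among all tested genes, 449 higher and 127 lower in the lin-35 mutant, ran over 258 to 625 and 37 to 220; those in the rde-4 mutant, 552 and 409, over 9 to 995 and 24 to 562; in the alg-1 mutant, 93 and 178, over 6 to 252 and 10 to 244; and in the zfp-1 mutant, 110 and 253, over 5 to 430 and 16 to 449. The 2 arrays of lin-35 replicate 2 differed by a median of 0.32 over member probe sets, against 0.12 for zfp-1 replicate 2, and alg-1 replicates 1 and 3 differed by an SD of 0.27 over all genes, within the range of repeat arrays of 1 sample (0.22 and 0.36).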
